A study of Homo sapiens with 9 samples.

Results

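The genes described here are 33 genes of cholesterol and fatty acid synthesis, taken by gene symbol from a table of read counts with 26485 symbols. They are 7 genes of the mevalonate arm, 11 genes from squalene to cholesterol, 5 genes that control the sterol-sensing transcription factors, 2 genes of sterol handling and 8 genes of fatty acid synthesis, desaturation and elongation. RNA was sequenced from MV4;11 cells, a line grown from a human acute myeloid leukaemia, with 3 libraries each of K148R cells, K148Q cells and parental cells. K148R and K148Q replace a lysine of the MYC protein by arginine and by glutamine, and the parental line carries neither substitution. All of them received no treatment and grew in RPMI. The sources used here do not give how the substitutions were introduced, whether each line is a single clone, or what the title codes WT, Q2 and R14 stand for. No label says if libraries of a genotype came from separate cultures, so p-values measure the spread between these libraries, which may be technical.

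Cells make cholesterol from acetyl-CoA by way of mevalonate, farnesyl diphosphate, squalene and lanosterol, and the same acetyl-CoA feeds the synthesis of palmitate, which desaturases and elongases then modify. The transcription factors SREBP1 and SREBP2, encoded by SREBF1 and SREBF2, are held in the endoplasmic reticulum by SCAP and the INSIG proteins while sterols are plentiful, and are released to the Golgi and cleaved when sterols run low. SREBP2 is known mainly for sterol genes and SREBP1 for fatty acid genes. MYC is a transcription factor that drives growth and metabolism in many cancers, including leukaemia.

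MYC itself had 382, 379 and 375 CPM (read counts scaled to library size) in K148R libraries, 489, 491 and 439 CPM in K148Q libraries and 335, 329 and 336 CPM in parental libraries. Its transcript rose in both mutants, with a log2 fold change of 0.18 in K148R (adjusted p = 0.0045) and 0.50 in K148Q (adjusted p = 1.5e-06). Counts per gene do not show the substitution. Totals ran between 13747087 and 18938391 counts per library. The third K148Q library stood apart: against the first and second K148Q libraries its counts gave chi-square values of 17.8 and 18.3 per degree of freedom, where those 2 libraries gave 1.35. Its deviation from them ran opposite to gene GC content (Spearman's rho of −0.72 over 12535 genes, and genes do not count as replicates). In it 4 of the 33 genes deviated by more than 0.5 on the log2 scale, which was not counted over all genes. Pairs of K148R libraries gave chi-square values of 3.03 to 5.22 per degree of freedom, and parental pairs 1.55 to 1.62. The first K148R library deviated from its group along GC content (rho of 0.43), and the third opposite to it (rho of −0.41). RN7SK, a transcript without a poly(A) tail, had 523, 496 and 435 CPM in K148R libraries, 7.43, 4.51 and 3.72 CPM in K148Q libraries and 6.45, 16.0 and 4.17 CPM in parental libraries, and the part of that difference in library make-up in the values below was not tested. The 11 myeloid markers examined summed to 3410 to 3480 CPM in K148R libraries, 1930 to 2020 CPM in K148Q libraries and 1360 to 1380 CPM in parental libraries, while CD14, a monocyte marker, was at or near 0. LYZ alone averaged 1649 CPM in K148R, 491 CPM in K148Q and 161 CPM in parental libraries. These markers did not move together. In K148R cells FLT3, MPO and MEIS1 fell, with log2 fold changes of −1.11, −1.38 and −0.35. PTPRC, CD33, CD4, ITGAM, CSF1R, LYZ and HOXA9 rose there. Markers of T cells, B cells, red cells, and fat and liver cells each summed to 3.93 CPM or less in every library. The 5 epithelial and stromal markers summed to 4.57 to 7.86 CPM in K148R libraries, 0.717 to 1.74 CPM in K148Q libraries and 27.0 to 30.1 CPM in parental libraries. The part of these marker differences in the results was not tested. In bulk RNA, more cells expressing a gene and more RNA per cell cannot be told apart.

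Most of the genes were higher in both mutants. In K148R cells 27 of the 33 genes rose, 3 fell and 3 were not called (edgeR quasi-likelihood test, Benjamini-Hochberg adjusted p under 0.05), where 37.8% of all 12845 tested genes rose and 37.3% fell. Their median log2 fold change was 1.69, against −0.00 over all tested genes, and 22 of them rose at least 2-fold, where 14.4% of all genes did. In K148Q cells 27 rose, 1 fell and 5 were not called, where 27% of all tested genes rose and 26.3% fell. Their median log2 fold change there was 0.95, against −0.01 over all tested genes, and 14 rose at least 2-fold, where 4.71% of all genes did. Both comparisons use the same parental libraries, so the direct test between the mutants was made as well. In K148R against K148Q cells 23 of the 33 genes were higher, 6 were lower and 4 were not called, where 36.6% of all genes were higher and 34.5% were lower, and the median log2 difference was 0.64 against 0.02 over all genes. At least 2-fold, 12 were higher, where 13.8% of all genes were, and ELOVL6 was lower, where 12.1% of all genes were.

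**Figure D1:**
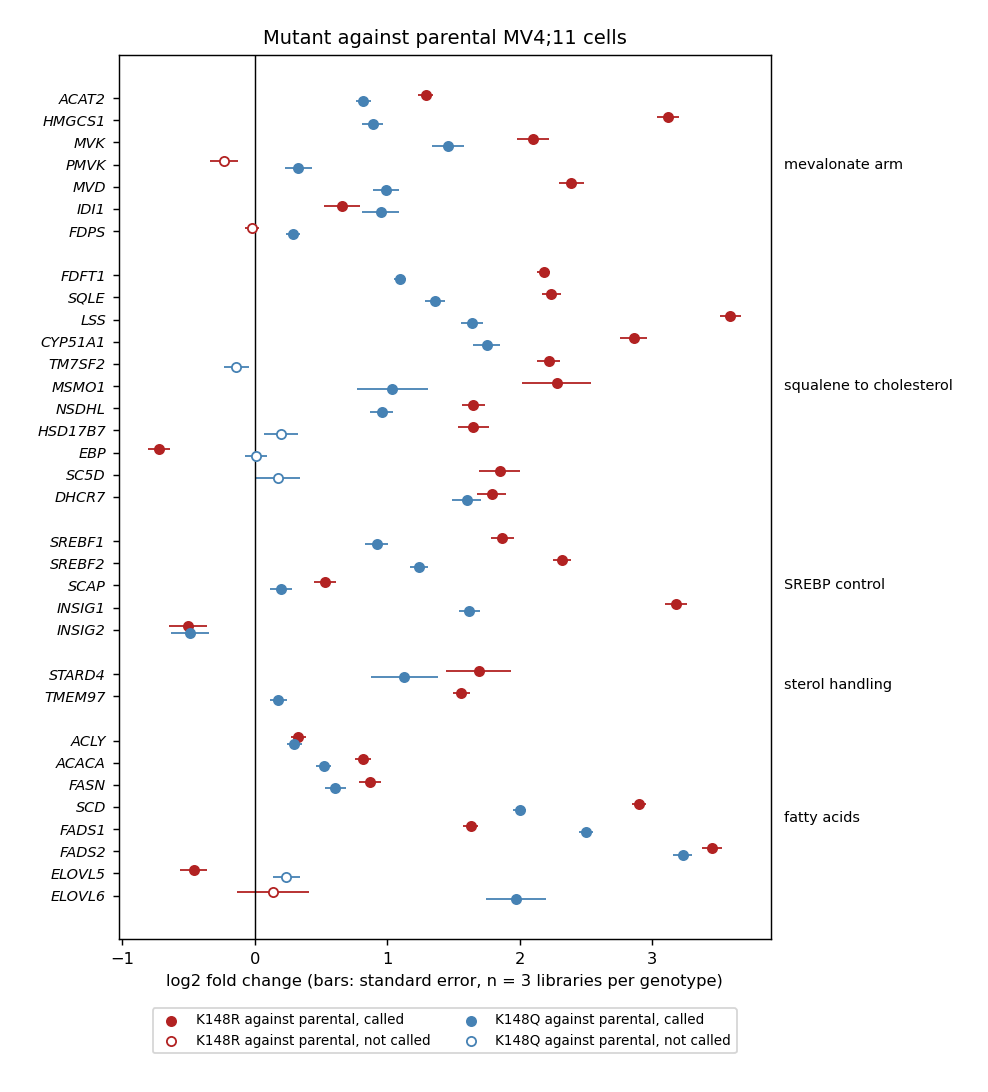
Log2 fold change of each of the 33 genes in K148R (red) and K148Q (blue) cells against parental cells, with bars for the standard error and filled points for calls at adjusted p under 0.05. Most points of both mutants lie right of 0, with LSS at 3.59 in K148R cells and FADS2 at 3.23 in K148Q cells the farthest in each.

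**Figure D2:**
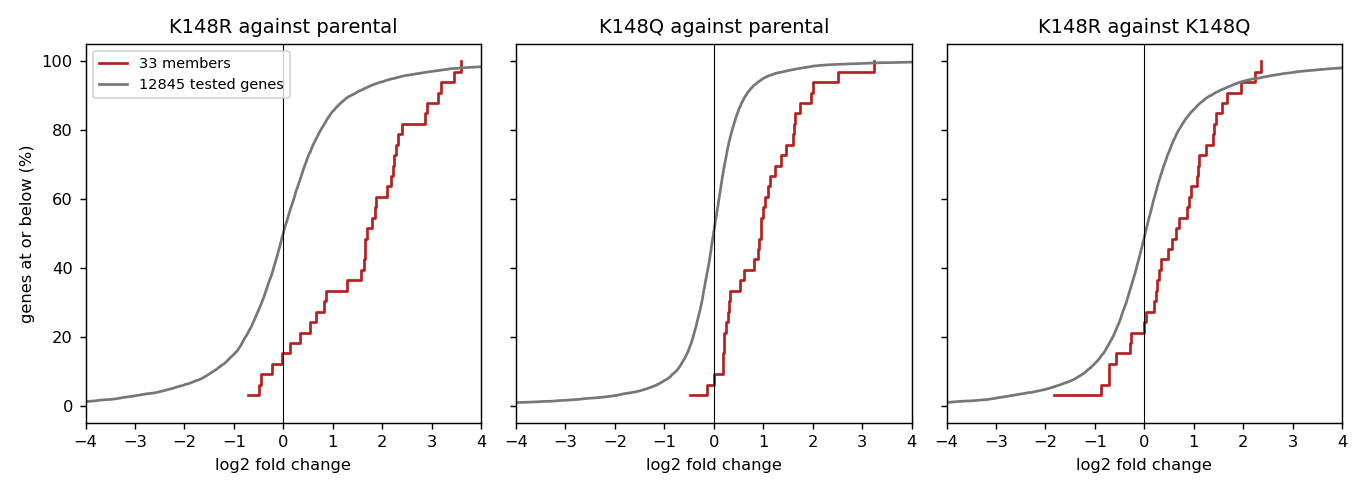
Share of genes (%) at or below each log2 fold change, as cumulative lines over the 33 genes (red) and all 12845 tested genes (grey), with the axis ending at 4 on either side. The median of the 33 genes was 1.69 in K148R against parental, 0.95 in K148Q against parental and 0.64 in K148R against K148Q cells, while the median of all genes lay within 0.02 of 0.

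In K148R cells HMGCS1, the cytosolic synthase that makes HMG-CoA, had the largest change of the mevalonate arm. It had 286, 295 and 328 CPM in K148R libraries, 59.8, 61.2 and 72.1 CPM in K148Q libraries and 35.2, 33.1 and 36.0 CPM in parental libraries. The 3 genotypes did not overlap, and K148R stood far above both others. Its log2 fold change was 3.12 ± 0.083 (SE) in K148R (adjusted p = 1.2e-13) and 0.89 ± 0.082 in K148Q cells (adjusted p = 5.6e-07), with a difference between the mutants of 2.23 (adjusted p = 2.8e-12). HMGCS1 lies on chromosome 5, at 43289395 to 43313512 on the minus strand (GRCh38, GENCODE v29).

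MVD, which decarboxylates mevalonate diphosphate, had 79.6, 73.5 and 68.8 CPM in K148R libraries, 30.0, 28.9 and 25.2 CPM in K148Q libraries and 14.8, 13.3 and 14.1 CPM in parental libraries. It rose in both mutants, by a log2 fold change of 2.39 in K148R and 0.99 in K148Q cells, without overlap between genotypes. MVK, mevalonate kinase, averaged 34.5 ± 0.942 CPM in K148R, 22.2 ± 3.29 CPM in K148Q and 8.09 ± 0.938 CPM in parental libraries (SD, n = 3 each), and rose by 2.10 on the log2 scale in K148R and 1.46 in K148Q cells. MMAB, on the opposite strand, overlaps 2.35% of MVK exons and rose too, by 1.39 in K148R and 1.16 in K148Q cells. ACAT2, the cytosolic thiolase that opens the pathway, averaged 151 CPM in K148R, 109 CPM in K148Q and 61.9 CPM in parental libraries and rose by 1.29 on the log2 scale in K148R and 0.82 in K148Q cells. SOD2 and TCP1, on the opposite strand, overlap 34.8% and 12.5% of its exons, and the sources used here do not say whether counting used strand. Neither neighbour rose: TCP1 averaged 379 CPM in K148R, 624 CPM in K148Q and 807 CPM in parental libraries. Other transcripts on the opposite strand were SOD2-OT1 over 45.8% of ACAT2 exons, AC114947.2 over 19.9% of HMGCS1 exons and RUSC1-AS1 over 28.9% of FDPS exons. Their part in these counts was not tested.

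The remaining mevalonate genes moved little or ran in another order. IDI1, the isopentenyl diphosphate isomerase, had 76.2, 72.4 and 81.3 CPM in K148R libraries, 80.6, 80.6 and 119 CPM in K148Q libraries and 44.5, 51.8 and 49.2 CPM in parental libraries. It rose in both mutants, by 0.66 in K148R and 0.95 in K148Q cells on the log2 scale, and the mutants were not called apart (−0.28, adjusted p = 0.074). The third K148Q library lay apart at 119 CPM: without it IDI1 gave 0.73 in K148Q cells and −0.07 between the mutants (adjusted p = 0.29). Without the first or the second K148Q library the difference between the mutants was −0.38 and was called (adjusted p = 0.020 and 0.021). PMVK, phosphomevalonate kinase, averaged 29.1 CPM in K148R, 43.1 CPM in K148Q and 34.2 CPM in parental libraries. PMVK rose in K148Q cells by 0.33 on the log2 scale (adjusted p = 0.014), a call that ended without the second parental library (adjusted p = 0.064) or the second K148Q library (adjusted p = 0.076). Its log2 fold change in K148R cells was −0.23 (adjusted p = 0.056), called under several alternatives, and it was lower in K148R than in K148Q cells. FDPS, farnesyl diphosphate synthase, averaged 175 CPM in K148R, 216 CPM in K148Q and 177 CPM in parental libraries, and rose by 0.29 in K148Q cells (adjusted p = 0.0005), with a log2 fold change of −0.02 in K148R cells (adjusted p = 0.79). FDPS has 8 annotated pseudogenes, CYP51A1 has 3, HSD17B7 and TMEM97 have 2 each, and SCD and FADS2 have 1 each, so the counts of these 6 genes are uncertain.

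The 11 genes from squalene to cholesterol changed most in K148R cells, where 10 rose and EBP fell, with a median log2 fold change of 2.18. Of all tested genes 37.8% rose and 37.3% fell there. In K148Q cells 7 rose and 4 were not called, with a median of 1.04, where 27% of all tested genes rose and 26.3% fell. LSS, lanosterol synthase, had 194, 182 and 179 CPM in K148R libraries, 51.2, 49.1 and 43.3 CPM in K148Q libraries and 15.6, 14.7 and 15.8 CPM in parental libraries. No 2 genotypes overlapped, and the log2 fold changes of 3.59 ± 0.080 (SE) in K148R (adjusted p = 2.3e-14) and 1.64 ± 0.081 in K148Q cells (adjusted p = 7.2e-10) made it the gene with the largest rise of the 33 in K148R cells. LSS lies on chromosome 21, at 46188141 to 46228824 on the minus strand.

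FDFT1, squalene synthase, averaged 700 ± 10.3 CPM in K148R, 332 ± 7.30 CPM in K148Q and 155 ± 3.31 CPM in parental libraries (SD, n = 3 each). SQLE, squalene epoxidase, averaged 348 CPM in K148R, 190 CPM in K148Q and 73.7 CPM in parental libraries, and CYP51A1, which removes a methyl group from lanosterol, averaged 171 CPM in K148R, 79.3 CPM in K148Q and 23.5 CPM in parental libraries. FDFT1, SQLE and CYP51A1 rose in K148R cells by 2.18, 2.24 and 2.86 on the log2 scale, and in K148Q cells by 1.10, 1.36 and 1.75. NSDHL, which removes a sterol carboxyl group, rose by 1.65 in K148R and 0.96 in K148Q cells. DHCR7, which carries out the last reduction in one branch, rose to like levels in both, with log2 fold changes of 1.79 in K148R and 1.60 in K148Q cells, and the mutants were not called apart (0.19, adjusted p = 0.10, or 0.048 without the first K148Q library and 0.027 without the second K148R library).

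A further 4 of these genes, TM7SF2, SC5D, HSD17B7 and EBP, were called in K148R cells, were not called in K148Q cells, and differed between the mutants. With the GC and length correction 3 of them were called in K148Q cells as well: TM7SF2 at −0.22 (adjusted p = 0.045), HSD17B7 at 0.39 (adjusted p = 0.012) and SC5D at 0.34 (adjusted p = 0.0072). TM7SF2, a sterol reductase, had 71.5, 66.5 and 68.3 CPM in K148R libraries, 13.0, 14.1 and 13.2 CPM in K148Q libraries and 15.4, 13.2 and 15.7 CPM in parental libraries. All K148R libraries lay above all others, while the K148Q and parental ranges overlapped: the log2 fold change was 2.22 in K148R cells (adjusted p = 6.7e-12) and −0.14 in K148Q cells (adjusted p = 0.23), with 2.35 between the mutants (adjusted p = 4.7e-12). SC5D, a sterol desaturase, and HSD17B7, a keto-sterol reductase, had log2 fold changes of 1.85 and 1.65 in K148R cells, and of 0.18 and 0.20 in K148Q cells, neither of the K148Q values called. SC5D came to −0.07 in K148Q cells without the third K148Q library.

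EBP, the isomerase that shifts a double bond in the sterol ring, went the other way. It had 40.4, 40.9 and 37.0 CPM in K148R libraries, 70.7, 68.0 and 56.9 CPM in K148Q libraries and 65.3, 65.1 and 64.0 CPM in parental libraries. K148R lay below every other library, and EBP fell by 0.72 on the log2 scale in K148R cells (adjusted p = 1.8e-06), while its log2 fold change in K148Q cells was 0.01 (adjusted p = 0.95). MSMO1, which oxidises sterol methyl groups, rose in both, by 2.28 in K148R cells and 1.04 in K148Q cells. Its K148Q value rested in part on the third library, at 27.2 CPM against 13.6 and 14.8 CPM, and was 0.65 (adjusted p = 0.0042) without it.

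Promoter sequence was available for 29 of the 33 genes in RefSeq (GRCh38.p14), as 39 promoters, each spanning 250 bases before to 50 bases after a start, and not for ACAT2, FDFT1, SQLE and FASN. Matches to 3 motifs were counted on both strands. CCAAT, the box bound by the factor NF-Y, was found in promoters of 22 of the 29 genes, 75.9%, against 43.3% of 9414 tested genes with a promoter. CACGTG, the E-box that MYC and its relatives bind, was found in 5 of them, INSIG1, SCAP, LSS, SC5D and ELOVL5, 17.2% against 12.7% of tested genes. TCACNCCAC, the core of the sterol regulatory element, was found in 1 of them, SREBF2, 3.45% against 1.38%. Counted per promoter and not per gene, 66.7% of the 39 promoters hold CCAAT, 15.4% CACGTG and 2.56% TCACNCCAC. Over all 35116 promoters of the RefSeq set, 34.6% hold CCAAT, 7.26% CACGTG and 1.13% TCACNCCAC. Each match describes letters in a window and shows no binding. Only exact matches within the window were counted, so a missing match does not show that an element is absent. The sequences below show the gene with the largest rise in K148R cells in each role group (HMGCS1, LSS, INSIG1, STARD4 and FADS2). SREBF2 is shown for its sterol element. EBP and INSIG2 were chosen after their values were seen, because they fell. ELOVL5, which also fell in K148R cells, is not shown, and its promoter holds CCAAT and CACGTG. Capitals mark motif letters, with the box written ATTGG where it lies on the other strand. Sequences read 5′ to 3′ along the gene's strand, and the stretches printed are chr5:43313473-43313592 (minus), chr21:46228845-46228964 (minus), chr22:41832955-41833024 (plus), chr7:155297688-155297837 (plus), chr5:111512636-111512715 (minus), chr11:61816284-61816403 (plus), chrX:48521608-48521787 (plus) and chr2:118088351-118088470 (plus).
HMGCS1: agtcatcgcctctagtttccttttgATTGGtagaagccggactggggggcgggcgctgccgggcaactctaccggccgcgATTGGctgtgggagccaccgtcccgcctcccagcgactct
LSS: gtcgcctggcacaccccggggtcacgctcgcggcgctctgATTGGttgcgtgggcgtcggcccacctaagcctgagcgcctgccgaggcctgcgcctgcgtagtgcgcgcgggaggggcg
SREBF2: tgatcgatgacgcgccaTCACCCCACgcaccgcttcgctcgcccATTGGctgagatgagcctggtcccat
INSIG1: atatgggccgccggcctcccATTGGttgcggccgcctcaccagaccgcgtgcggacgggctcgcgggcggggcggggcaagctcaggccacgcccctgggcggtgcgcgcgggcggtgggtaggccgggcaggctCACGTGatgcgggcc
STARD4: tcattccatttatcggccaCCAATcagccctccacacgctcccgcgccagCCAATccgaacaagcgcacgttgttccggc
FADS2: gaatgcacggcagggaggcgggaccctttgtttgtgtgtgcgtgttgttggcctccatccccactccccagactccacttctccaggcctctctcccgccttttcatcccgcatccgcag
EBP: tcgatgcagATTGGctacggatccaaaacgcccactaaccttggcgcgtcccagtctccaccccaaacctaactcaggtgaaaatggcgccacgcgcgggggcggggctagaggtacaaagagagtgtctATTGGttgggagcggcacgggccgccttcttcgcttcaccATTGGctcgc
INSIG2: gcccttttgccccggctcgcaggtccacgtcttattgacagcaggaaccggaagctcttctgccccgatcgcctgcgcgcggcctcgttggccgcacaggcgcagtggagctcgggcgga
HMGCS1, STARD4 and EBP hold the box more than once, and INSIG1 holds a box and an E-box. The stretches printed for FADS2 and INSIG2 hold none of the 3 motifs. FADS2 was still counted with CCAAT, which begins at base 6 after its start, past the printed stretch. The E-box counted for LSS, at base 41 after its start, also lies past the stretch printed. EBP, which fell in K148R cells, and HMGCS1, which rose, both hold CCAAT boxes.

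Among the 5 regulators, 4 rose and INSIG2 fell in each mutant. Of all tested genes 37.8% rose and 37.3% fell in K148R cells, and 27% rose and 26.3% fell in K148Q cells. SREBF2, which encodes the sterol-responsive SREBP2, had 733, 720 and 697 CPM in K148R libraries, 356, 361 and 301 CPM in K148Q libraries and 140, 151 and 140 CPM in parental libraries. The genotypes did not overlap, and the log2 fold changes were 2.32 ± 0.068 (SE) in K148R and 1.24 ± 0.066 in K148Q cells, with 1.08 between the mutants (adjusted p = 1.3e-09). SREBF1 rose by 1.87 in K148R and 0.92 in K148Q cells, with averages of 229, 118 and 62.6 CPM in K148R, K148Q and parental libraries.

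INSIG1, which retains SCAP in the endoplasmic reticulum and is itself a target of SREBP, had 605, 612 and 635 CPM in K148R libraries, 193, 194 and 240 CPM in K148Q libraries and 63.4, 69.4 and 71.1 CPM in parental libraries. No 2 genotypes overlapped, and INSIG1 rose by 3.18 on the log2 scale in K148R (adjusted p = 1.1e-13) and 1.62 in K148Q cells (adjusted p = 7.2e-10). Its paralog INSIG2 averaged 10.8 ± 1.21 CPM in K148R, 10.8 ± 2.26 CPM in K148Q and 15.3 ± 1.61 CPM in parental libraries. INSIG2 fell by 0.50 on the log2 scale in K148R and fell by 0.49 in K148Q cells, but with a correction for GC content and length the values were 0.01 in K148R (adjusted p = 0.97) and −0.25 in K148Q cells (adjusted p = 0.053), so both calls ended. The K148Q call also ended without the second K148Q library (−0.38, adjusted p = 0.051). SCAP, the escort that carries SREBP to the Golgi, rose by 0.53 in K148R cells. In K148Q cells SCAP rose by 0.20 (adjusted p = 0.0497), and the call ended on leaving out any 1 library other than the third K148Q library, with adjusted p from 0.052 to 0.24, and its value was 0.12 without the second K148Q library. Without the third K148Q library SCAP gave 0.29 in K148Q cells (adjusted p = 3.1e-05). With the correction SCAP came to 0.20 in K148R and 0.06 in K148Q cells (adjusted p = 0.24).

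STARD4, a carrier of cholesterol between membranes, had 19.5, 21.3 and 23.4 CPM in K148R libraries, 10.1, 11.6 and 21.6 CPM in K148Q libraries and 6.57, 6.58 and 6.67 CPM in parental libraries. The third K148Q library reached the K148R range, so the mutants overlapped. STARD4 rose by 1.69 in K148R and 1.13 in K148Q cells, and was called higher in K148R than in K148Q cells at 0.56 (adjusted p = 0.041). Without that library it gave 0.71 in K148Q against parental cells and 0.98 between the mutants. The call between the mutants ended without any 1 of 6 other libraries, the lowest value being 0.36 without the first K148Q library (adjusted p = 0.11). That call also ended with no filter on low counts (0.54, adjusted p = 0.13) and with only the libraries of the mutants fitted (0.53, adjusted p = 0.094). TMEM97, a membrane protein that responds to sterol levels, averaged 233 CPM in K148R, 89.8 CPM in K148Q and 79.2 CPM in parental libraries. It rose by 1.56 in K148R cells (adjusted p = 1.5e-11) and by 0.18 in K148Q cells (adjusted p = 0.029), with 1.38 between the mutants. The K148Q call ended without the first or second parental library or the second K148Q library, with adjusted p from 0.061 to 0.12. IFT20, on the opposite strand, overlaps 11.9% of TMEM97 exons and moved the same way in K148R cells: it averaged 26.1 CPM in K148R, 12.1 CPM in K148Q and 14.5 CPM in parental libraries, and rose by 0.85 in K148R cells (adjusted p = 1.8e-06), with 1.11 between the mutants.

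**Figure D3:**
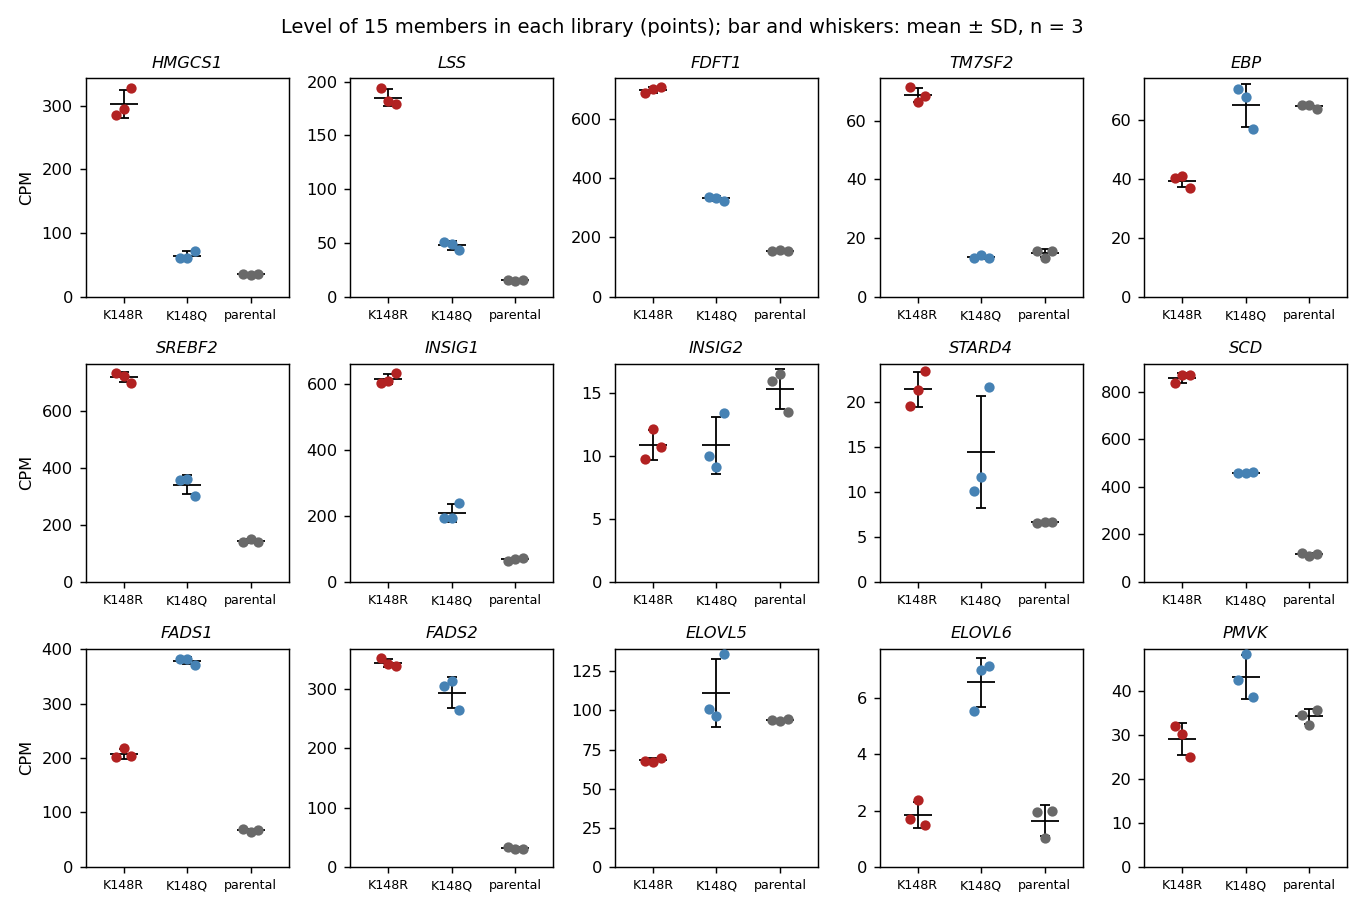
CPM (linear axis from 0) in every library for 15 of the genes, with K148R libraries left, K148Q libraries next and parental libraries right in each panel. Points are libraries, and bars with whiskers are the mean and SD (n = 3). LSS, INSIG1 and SREBF2 separate into 3 levels, TM7SF2 and EBP set K148R apart from both others, and ELOVL6 sets K148Q apart.

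The 8 fatty acid genes changed in a different order between the mutants. In K148R cells 6 rose, ELOVL5 fell and ELOVL6 was not called, with a median log2 fold change of 0.84, where 37.8% of all tested genes rose and 37.3% fell. In K148Q cells 7 rose and ELOVL5 was not called, with a median of 1.29, where 27% of all tested genes rose and 26.3% fell. FADS2, the first desaturase of polyunsaturated fatty acid synthesis, had 352, 342 and 339 CPM in K148R libraries, 305, 313 and 264 CPM in K148Q libraries and 33.2, 30.8 and 30.2 CPM in parental libraries. FADS2 rose by 3.45 ± 0.073 (SE) in K148R and 3.23 ± 0.073 in K148Q cells on the log2 scale. The mutants differed by 0.23 (adjusted p = 0.0049), a call that ended with the GC and length correction (0.05, adjusted p = 0.13).

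Its neighbour FADS1, another front-end desaturase, had 202, 218 and 203 CPM in K148R libraries, 382, 382 and 371 CPM in K148Q libraries and 68.9, 63.7 and 67.9 CPM in parental libraries. The genotypes did not overlap, and here K148Q was the highest: FADS1 rose by 1.63 in K148R and 2.50 in K148Q cells, and was lower in K148R than in K148Q cells by 0.87 on the log2 scale (adjusted p = 1.4e-09). FADS1 and FADS2 lie on opposite strands of chromosome 11 and share 1.8% of the exon bases of FADS1 and 2.85% of those of FADS2. SCD, which makes monounsaturated fatty acids, had 836, 871 and 873 CPM in K148R libraries, 457, 459 and 463 CPM in K148Q libraries and 121, 109 and 116 CPM in parental libraries. SCD rose by 2.90 in K148R (adjusted p = 4.1e-15) and 2.00 in K148Q cells (adjusted p = 5e-13).

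The enzymes that build palmitate changed less. FASN, fatty acid synthase, averaged 849 ± 48.1 CPM in K148R, 710 ± 96.5 CPM in K148Q and 464 ± 15.5 CPM in parental libraries (SD, n = 3 each), and rose by 0.87 on the log2 scale in K148R and 0.61 in K148Q cells. With the GC and length correction these values were 0.43 in K148R and 0.38 in K148Q cells. FASN was called higher in K148R than in K148Q cells at 0.26 (adjusted p = 0.012), but at 0.05 (adjusted p = 0.10) with the correction and 0.21 (adjusted p = 0.057) without the first K148R library it was not. Without the third K148Q library the difference was 0.15 (adjusted p = 0.0011). ACACA, the carboxylase that makes malonyl-CoA, rose by 0.82 in K148R and 0.52 in K148Q cells. ACLY, which makes cytosolic acetyl-CoA from citrate, averaged 494 CPM in K148R, 482 CPM in K148Q and 392 CPM in parental libraries and rose by 0.33 in K148R and 0.30 in K148Q cells, or by 0.12 in K148R and 0.19 in K148Q cells with the correction.

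Both elongases were lower in K148R than in K148Q cells. ELOVL6, which extends palmitate to stearate, had 1.69, 2.37 and 1.49 CPM in K148R libraries, 5.54, 6.98 and 7.13 CPM in K148Q libraries and 1.93, 1.01 and 1.97 CPM in parental libraries. The K148Q libraries lay above all others, with a log2 fold change of 1.97 (adjusted p = 5.4e-06), against 0.14 in K148R cells (adjusted p = 0.67) and −1.83 between K148R and K148Q (adjusted p = 3.2e-06). ELOVL5, which extends polyunsaturated fatty acids, averaged 68.0 CPM in K148R, 111 CPM in K148Q and 93.8 CPM in parental libraries. ELOVL5 fell by 0.46 on the log2 scale in K148R cells (adjusted p = 0.00095), by 0.24 with the correction, and had a log2 fold change of 0.24 in K148Q cells (adjusted p = 0.057), where the third library stood at 136 CPM. Without that library the K148Q value was 0.07 (adjusted p = 0.23). ELOVL5 was called higher in K148Q cells without the first (0.31) or second K148Q library (0.33), with the correction (0.35, adjusted p = 1.5e-05), with DESeq2 or RLE scaling (0.25 each) and with the replicate block (0.23).

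**Figure D4:**
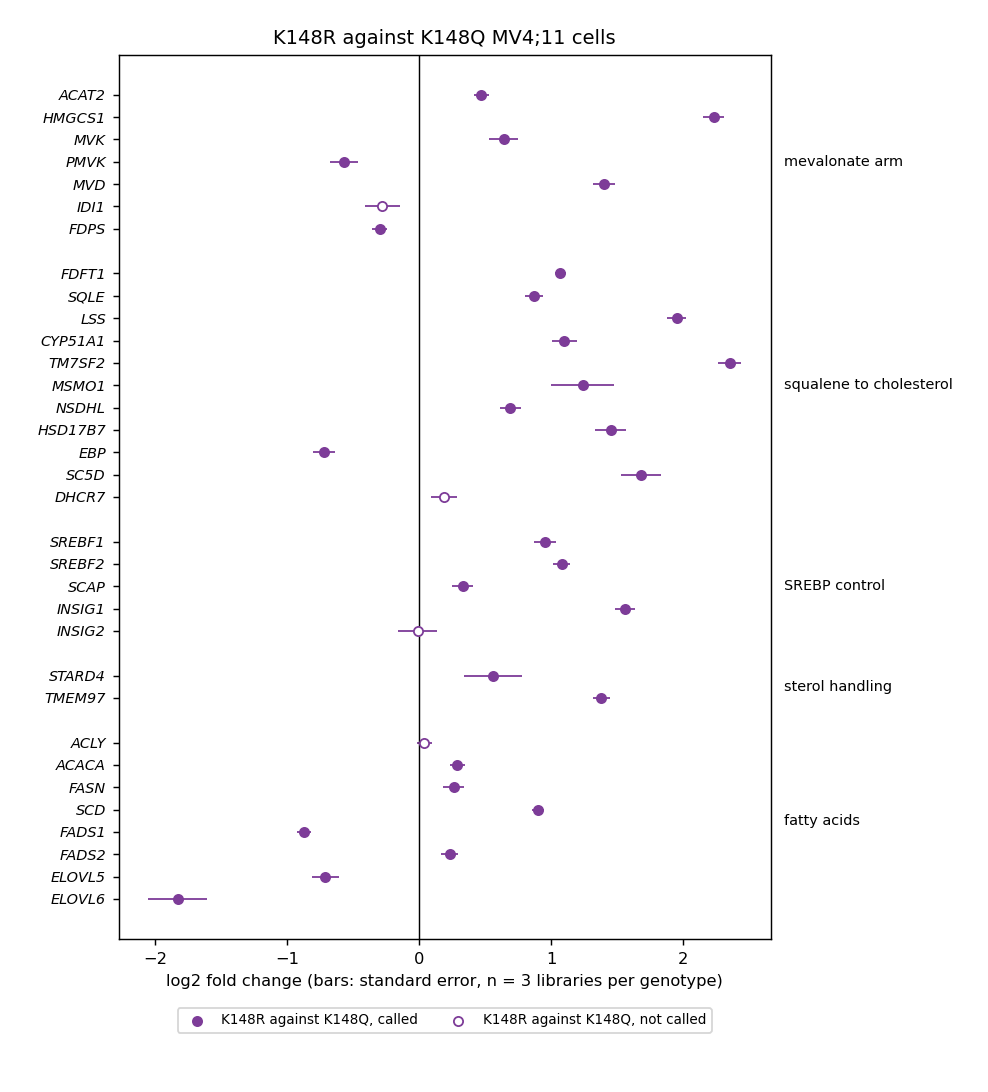
Log2 difference of K148R against K148Q cells for the 33 genes, with bars for the standard error (n = 3 libraries per genotype) and open points for genes not called. TM7SF2 at 2.35 and HMGCS1 at 2.23 lie farthest right, and ELOVL6 at −1.83 lies farthest left.

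Scaled by exon length, the order of levels also changed. Parental cells had FDPS first with 107 CPM per kilobase of exon, then ACLY with 89.6 and FASN with 54.2. K148R cells had INSIG1 first with 200 CPM per kilobase, then SCD with 160, FDFT1 with 152, SREBF2 with 134 and SQLE with 117. K148Q cells had FDPS first with 131 CPM per kilobase, then ACLY with 110 and SCD with 85.7. ELOVL6 was lowest in every genotype, with 0.279 CPM per kilobase in K148R, 0.988 in K148Q and 0.247 in parental cells.

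**Figure D5:**
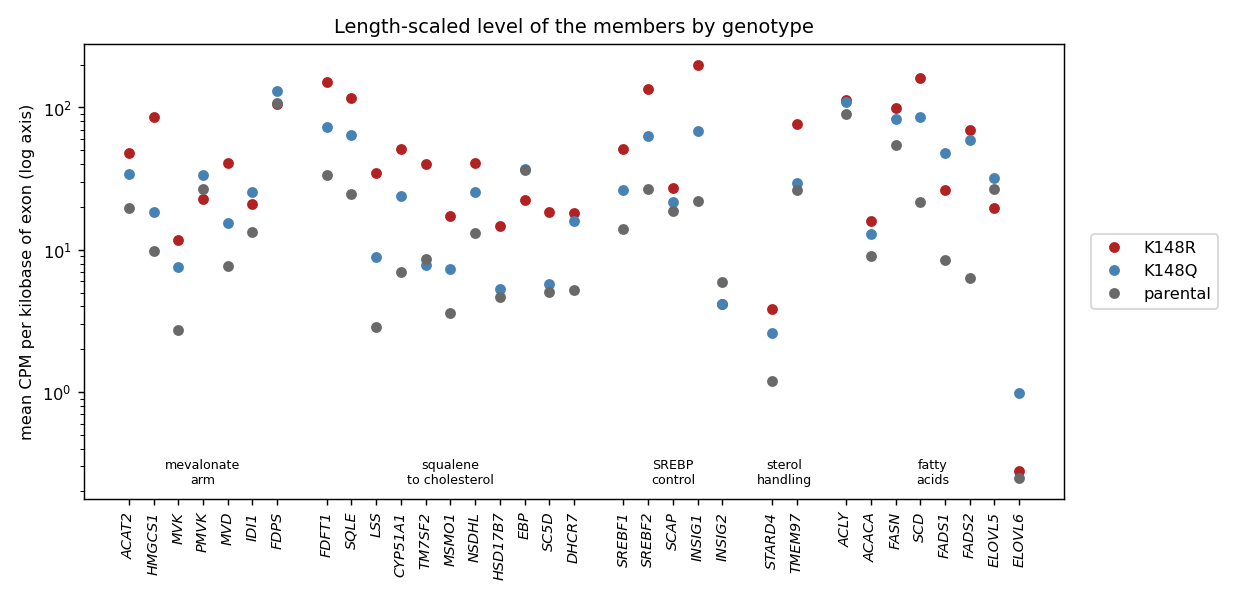
Mean CPM per kilobase of exon on a log axis for each of the 33 genes, in K148R (red), K148Q (blue) and parental (grey) cells. LSS, FADS2, INSIG1 and HMGCS1 spread furthest between genotypes, FDPS and ACLY lie close together, and ELOVL6 lies lowest.

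Of 55 other genes of the pathway that were listed, 49 passed the filter on low counts. In K148R cells 22 of these rose (44.9%) and 16 fell (32.7%), with a median log2 fold change of 0.17, where 37.8% of all tested genes rose and 37.3% fell. In K148Q cells 23 rose (46.9%) and 9 fell (18.4%), with a median of 0.20, where 27% of all tested genes rose and 26.3% fell. Between the mutants 17 were higher (34.7%) and 18 lower (36.7%) in K148R cells, where 36.6% of all tested genes were higher and 34.5% lower. Of 14 tested other genes of sterol and isoprenoid synthesis, 6 rose and 6 fell in K148R cells (42.9% each), and 7 rose (50%) and 3 fell (21.4%) in K148Q cells. Those of them that rose in both mutants are not named here. CYB5A, cytochrome b5, which passes electrons to desaturases, averaged 4.12 CPM in K148R and 21.1 CPM in parental libraries. CYB5A fell by 2.37 on the log2 scale in K148R and fell by 1.07 in K148Q cells. Among 11 further regulators of SREBP and of sterol sensing, 6 rose (54.5%) and 2 fell (18.2%) in K148R cells, and 6 rose (54.5%) and 1 fell (9.09%) in K148Q cells. MBTPS1, the Golgi protease that first cuts SREBP, rose with 176 CPM in K148R, 106 CPM in K148Q and 59.3 CPM in parental libraries, with log2 fold changes of 1.57 in K148R and 0.83 in K148Q cells. TRIB1, a pseudokinase, rose by 2.16 in K148R and 0.46 in K148Q cells. RNF145, a ubiquitin ligase of the endoplasmic reticulum, rose by 1.05 in K148R cells but fell in K148Q cells (−0.37). ERLIN1, which binds cholesterol in that membrane, averaged 108 CPM in K148R, 367 CPM in K148Q and 141 CPM in parental libraries. It rose by 1.38 in K148Q cells and fell by 0.39 on the log2 scale in K148R cells.

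Among 20 tested other fatty acid genes, 10 rose (50%) and 5 fell (25%) in K148R cells, against 37.8% and 37.3% of all tested genes. In K148Q cells 9 rose (45%) and 4 fell (20%), against 27% and 26.3% of all tested genes. ACSL1, which activates fatty acids with coenzyme A, averaged 137 CPM in K148R, 326 CPM in K148Q and 186 CPM in parental libraries. It rose by 0.81 in K148Q cells and fell in K148R cells (−0.44). ACSL5, of the same family, fell by 2.49 on the log2 scale in K148R cells and also fell in K148Q cells (−0.59). MID1IP1, which activates acetyl-CoA carboxylase, rose by 0.96 in K148Q and 0.85 in K148R cells. HACD3, a dehydratase of fatty acid elongation, fell by 1.21 on the log2 scale in K148R cells and was not called in K148Q cells (−0.06). Of the 4 genes of mitochondrial fatty acid synthesis, CBR4, MECR and MCAT fell in K148R cells, and CBR4 fell by 1.18 on the log2 scale. In K148Q cells CBR4 fell as well (−0.55), MECR rose (0.21, adjusted p = 0.049) and MCAT was not called (−0.18). OXSM, the remaining one, was not called in K148R cells (−0.06, adjusted p = 0.61) or in K148Q cells (−0.17, adjusted p = 0.18).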

How the data were processed

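RNA sequencing libraries of untreated MV4;11 cells were grouped by the genotype in the labels. The authors deposited raw counts per gene symbol, not normalised. Build GRCh38 and the tools HISAT2 2.0.5 and featureCounts 1.5.2, with FastQC 0.11.7, are listed in the submitters' processing notes. The sources used here do not give the annotation or strand setting. Counts were tested with edgeR 4.0.16 (limma 3.58.1, R 4.3.3) by the quasi-likelihood test on all 9 libraries with 1 term per genotype and TMM scaling. Genes passing filterByExpr (minimum count 10) numbered 12845 of 26485, all 33 genes included. P-values were adjusted by Benjamini-Hochberg over all tested genes, with calls under 0.05. CPM were computed on TMM-scaled library sizes, and standard errors as the log2 fold change over the square root of the F value. An exact permutation of 3 against 3 libraries cannot go below p = 0.1, so no such test was made. The genes and lists were chosen with earlier results of these data known. All 33 genes were named. From the other lists, the rule took the 3 called genes with the smallest p and the 1 tested gene with the largest p per list and comparison, and some of those genes are not reported here. Positions and exon lengths came from GENCODE v29. Alternatives were DESeq2 1.42.0, other scaling and filters, a 1.5-fold rule, a GC and length correction (offsets from a smooth fit of each library's deviation from the mean of all libraries, which also takes out a trend tied to genotype), a replicate block and leaving out each library. The edgeR script was tested on simulated data.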

Additional observations from a re-analysis of the deposited data

How the results depend on the processing

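The counts of the 33 genes called higher kept within 1.5 times of their reported values under every alternative run. Leaving out 1 library at a time, 24 to 27 rose and 0 to 1 fell in K148Q cells (0 without the second K148Q library), 27 rose and 3 to 4 fell in K148R cells, and 21 to 23 were higher and 6 to 7 lower in K148R than in K148Q cells, with medians of 0.80 to 0.95, 1.67 to 1.75 and 0.63 to 0.66. Over all genes 5812 to 8350, 9060 to 10317 and 8610 to 9608 were then called. A 1.5-fold rule left 2890 genes called in K148Q, 6243 in K148R and 5536 between the mutants, against 6848, 9649 and 9126, and 0 of the 33 genes lower in K148Q and 1 in K148R cells. The median between the mutants was 0.67 with upper-quartile scaling, 0.61 with no filter, 0.68 with a mean of 5 CPM required, 0.61 with only those libraries fitted and 0.73 with the GC and length correction. Same-numbered libraries deviated together with correlations of −0.024 to 0.27, so the numbers were not taken as pairs, and with a replicate block 28 rose and 1 fell in K148Q, 27 rose and 4 fell in K148R, and 23 were higher and 7 lower between the mutants, with 7262, 9821 and 9410 genes called in all. Values near 0 that had not been called changed sign: EBP in K148Q to −0.04 with upper-quartile scaling and −0.03 with the correction, INSIG2 between the mutants to 0.03 with upper-quartile scaling, 0.01 with 5 CPM required and 0.26 with the correction (adjusted p = 0.046), and ACLY between them to −0.08 with the correction (adjusted p = 0.03). INSIG2 in K148R changed sign to 0.01 with the correction. Leaving out 1 library gave −0.06 to 0.10 for EBP and −0.07 to 0.33 for SC5D in K148Q, −0.04 to 0.01 for FDPS and −0.09 to 0.28 for ELOVL6 in K148R, and −0.12 to 0.17 for INSIG2 and −0.01 to 0.07 for ACLY between the mutants. The causes were not tested. FASN between the mutants lost its call without the first K148R library. PMVK, TMEM97, SCAP and INSIG2 in K148Q and STARD4 between the mutants lost theirs without some libraries. STARD4 also lost it with no filter and with only those libraries of the mutants fitted. ELOVL6 had the lowest CPM of the 33 genes, under 10 in every library.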

Other observations

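Paralogs and enzymes that share a step with the genes above did not always follow them. These pairs were chosen after their values were seen. LBR, which carries the same sterol reductase activity as TM7SF2, averaged 74.5 ± 3.56 CPM in K148R, 171 ± 32.7 CPM in K148Q and 248 ± 6.13 CPM in parental libraries (SD, n = 3 each). LBR fell by 1.74 on the log2 scale in K148R cells (edgeR, adjusted p = 6.8e-09) and fell by 0.54 in K148Q cells (adjusted p = 0.00069), while TM7SF2 rose in K148R cells by 2.22. SCD5, a paralog of SCD, averaged 0.423 CPM in K148R, 1.35 CPM in K148Q and 12.3 CPM in parental libraries. SCD5 fell by 4.82 on the log2 scale in K148R and fell by 3.18 in K148Q cells, where SCD rose by 2.90 in K148R and 2.00 in K148Q cells.

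ACAT1, the mitochondrial thiolase, averaged 74.5 CPM in K148R, 176 CPM in K148Q and 193 CPM in parental libraries and fell by 1.37 on the log2 scale in K148R cells, where the cytosolic ACAT2 rose by 1.29. The elongation dehydratase HACD1 averaged 0.688 CPM in K148R, 4.52 CPM in K148Q and 0.696 CPM in parental libraries. It rose in K148Q cells by 2.69 on the log2 scale (adjusted p = 7e-07), had −0.02 in K148R cells (adjusted p = 0.96), and was lower in K148R than in K148Q cells (−2.70, adjusted p = 1.9e-07), as was ELOVL6. Another dehydratase, HACD4, averaged 13.9 CPM in K148R, 3.83 CPM in K148Q and 14.6 CPM in parental libraries, and fell by 1.92 on the log2 scale in K148Q cells.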
